A study of Glycine max with 34 samples.

Results

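MYB transcription factors are proteins that bind DNA through repeats of a helix-turn-helix fold, and the soybean seed at early maturation is described here through the genes that encode them. A gene was taken where a soybean probe set on the array carried exactly 1 gene symbol in the platform's probe-to-gene table and that symbol was MYB followed by digits. The table held 102 such probe sets for 65 symbols. A probe set was kept if its signal lay above the array's background on at least 2 of the 34 arrays, the background being the 95th percentile of the probe sets designed for 2 other organisms, a nematode and an oomycete. Of the 102 probe sets, 69 passed, and the brightest passing probe set of each symbol gave 50 MYB genes, out of 5527 genes with a single-gene probe set tested on the array. Just inside the limit stood MYB150, MYB164, MYB179 and MYB185, each above background on 2 arrays. Just outside it stood MYB149 and MYB178, above background on 1 array each, with highest signals of 214.5 and 229. The other 13 symbols that were left out were above background on 0 arrays: MYB13, MYB29, MYB76, MYB82, MYB84, MYB97, MYB98, MYB99, MYB101, MYB114, MYB118, MYB121 and MYB181. For MYB114 this concerns its own probe set only, since RefSeq gives MYB134, one of the 50, as another name of MYB114.

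Plant MYB proteins form one of the largest transcription factor families of flowering plants. Members with paired repeats are best known for switching on the genes of the phenylpropanoid and flavonoid pathway, which makes seed coat pigments, tannins and, in legumes, isoflavonoids, while others shape epidermal cells, stress responses and the daily clock. Members with a single repeat can act as repressors or, in the LHY and CCA1 type, as clock components. The number in a soybean MYB name does not correspond to the number of an Arabidopsis gene.

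The samples were 34 arrays of seeds of the soybean cultivar Asgrow A3237, 6 to 7 mm long, from plants grown at 22 °C in a cycle of 16 h of light and 8 h of dark. All 17 groups shared this stage and cultivar, carried no treatment or mutation, and had 2 biological replicates each. One group was the whole seed, described as ground in liquid nitrogen, and 16 were compartments cut by laser from sections 8 micron thick. The seed coat gave 5 (aleurone, hourglass, palisade, parenchyma and hilum), the cotyledon 5 (vascular bundle, abaxial and adaxial epidermis, abaxial and adaxial parenchyma) and the embryonic axis 6 (root meristem, shoot meristem, epidermis, vascular bundle, plumule and parenchyma). The aleurone is a remnant of the endosperm, while the other coat layers are maternal tissue, and cotyledon and axis form the embryo. In each preparation 2 ng of RNA was amplified and labelled with biotin. Neither the number of seeds in a replicate nor whether compartments share seeds is stated. In most comparisons p-values therefore measure only the spread among these preparations. For seed coat against embryo and cotyledon against axis they measure the spread among the compartments within a region.

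Signals are the linear intensities that the authors deposited, and differences are given on the scale of log2(signal + 16), as the first-named group minus the second. A fold is that log2 difference on a linear scale, and so compares means of logs, not plain means of signals. A gene was called in a comparison where limma's Benjamini-Hochberg adjusted p over 28441 tested soybean probe sets was under 0.05 and the log2 difference was at least 1. The background lay between 104.3 and 263.9 on the arrays, and 44.2 to 59.8% of soybean probe sets stood above it. Between 21 and 43 of the 50 MYB genes were above background on an array. On 6 arrays the spiked hybridization controls were over 2 times their median, both of the axis epidermis, both of the plumule, and replicate 1 of the axis vascular bundle and of the aleurone. Markers bore on the regions more than on single layers: the glycinin genes GY1 and GY2 were brightest in cotyledon tissue and AGL1L, SEP1 and MADS28 in the seed coat. The storage protein gene GM2S-1 was instead brightest in the axis epidermis, at 98465, where the highest cotyledon compartment stood at 71456. Ep, the peroxidase known from hourglass cells, was highest in the hourglass layer at 39541 but stood at 24206 in the seed coat parenchyma. The 8 sieve element occlusion genes, which encode phloem proteins, summed to 1508 in the cotyledon vascular bundle and 1332 in the axis vascular bundle. The other 9 embryo compartments were lower, at 446 to 896. In the seed coat the sum was 16784 in the parenchyma and 1310.5 in the aleurone, so that the aleurone stood near the axis bundle. SEOP of these genes was above background on 0 arrays. H4, read as a histone symbol for dividing cells, was brightest in the aleurone at 56558. It stood at 146.7 in the root meristem and 83.2 in the shoot meristem, beside 217.1 in the axis epidermis. H4 therefore did not set the meristems apart. The cyclin symbols and SBH1, also looked for as markers of dividing cells and of the shoot meristem, were not analysed here.

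Across the seed, MYB genes ranged from steady to almost entirely confined to a few layers. An F test in limma over the 16 compartments called 33 of the 50 genes, 66% of them, beside 63.4% of all tested probe sets. The median gene spanned 2.96 log2 units between its lowest and highest compartment, beside 2.49 for all tested probe sets. The widest spans belonged to MYB48 with 10.00, MYB172 with 8.93, MYB138 with 8.76, MYB73 with 8.47, MYB11 with 7.71 and MYB145 with 7.32 log2 units. The smallest belonged to MYB55 with 1.30, MYB93 with 1.23 and MYB150 with 1.11 log2 units. MYB150 barely left the background, whereas MYB55 was above it on all 34 arrays, between 540 and 2123, so a narrow span was seen in dim and in well measured genes alike.

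The highest compartment lay in the seed coat for 33 of the 50 genes, or 66%, where the same held for 40.9% of all tested probe sets. Within the coat these were 10 genes for the parenchyma, 6 each for aleurone, hilum and hourglass, and 5 for the palisade. Matching shares of all tested probe sets for single layers are not given here. The axis held the highest compartment of 12 genes, 24% beside 38% of all tested. The cotyledon held that of 5, 10% beside 21.1%. These counts describe genes that passed a filter on signal, and 8 of the 50 passed it on no more than 4 arrays, so that they had to stand out somewhere. The 17 genes without an F-test call were MYB12A, MYB55, MYB81, MYB83, MYB85, MYB93, MYB127, MYB133, MYB139, MYB142, MYB143, MYB150, MYB164, MYB175, MYB177, MYB183 and MYB186. Their spans ran between 1.11 and 3.30 log2 units, and a missing call does not show that a gene was even over the seed.

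**Figure D1:**
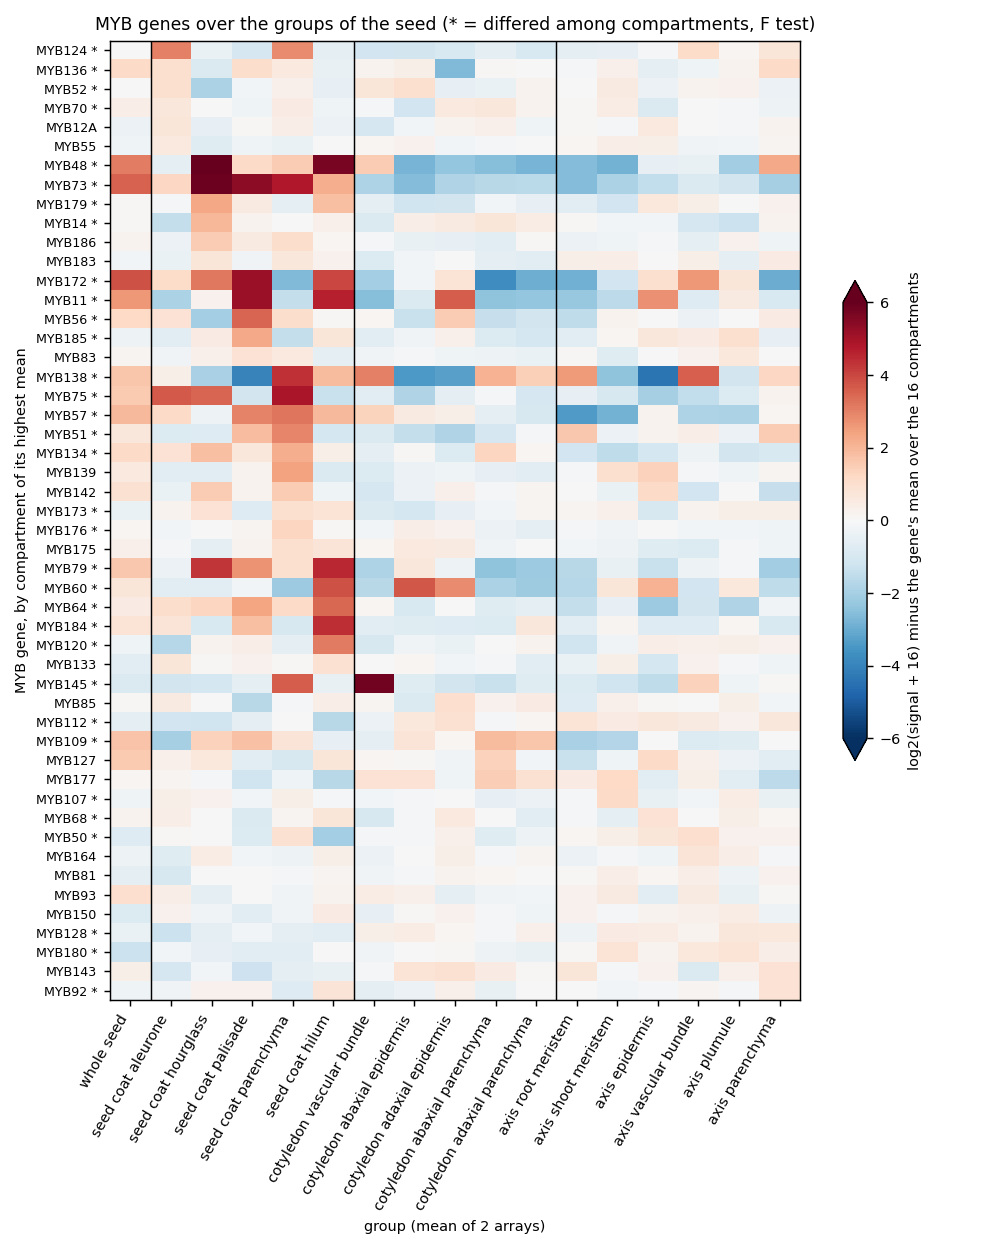
Each row is 1 of the 50 MYB genes and each column 1 of the 17 groups, whole seed first, then seed coat, cotyledon and axis. Colour gives the group mean (2 arrays) of log2(signal + 16) minus that gene's mean over the 16 compartments, drawn to a limit of 6. Rows are ordered by the compartment with the highest mean, an asterisk marks the 33 genes called by the F test, and 33 genes peak in a seed coat column.

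In the seed coat, set against the embryo, 7 MYB genes were higher (MYB73, MYB48, MYB79, MYB75, MYB64, MYB57 and MYB134) and 1, MYB112, was lower. That is 14% and 2% of the 50 genes, beside 7.42% of all tested probe sets called higher and 7.44% called lower. The median difference of the 50 genes was 0.32 log2 units, beside -0.05 for all tested. In this comparison each compartment was 1 unit, 5 of seed coat and 11 of embryo. Compartments may share seeds, in which case the p-values may be too small. In tissue of mixed cells fewer expressing cells cannot be told apart from less RNA per cell.

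MYB73, which belongs to the small repressor-like R3 type and is known in soybean for raising lipid accumulation when overexpressed in plants, showed the widest gap between the regions. Its signal on the 10 seed coat arrays had a lowest value of 952.5, a median of 14903 and a highest of 31498, against 34.2, 141 and 499 on the 22 embryo arrays. Every coat array was above every embryo array. The log2 difference was 5.68 ± 0.60 (SE; adjusted p = 1.12e-05). Only 6 of the embryo arrays were above background, so the gap is given as at least 37.2-fold, with each dim array set to the higher of its signal and its background.

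MYB48 had a lowest signal of 80, a median of 603 and a highest of 35409 on the seed coat arrays, against 4.9, 24.2 and 1424 on the embryo arrays. The regions overlapped, since the aleurone was low while the axis parenchyma and the cotyledon vascular bundle were above background. The log2 difference was 4.41 ± 1.17 (SE; adjusted p = 0.0135), and without the hourglass compartment it was 3.37 with adjusted p = 0.051.

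MYB79 ran between 37.8 and 3799 in the seed coat with a median of 963, against 7.2 to 367 with a median of 67.2 in the embryo (log2 difference 3.53 ± 0.72, SE; adjusted p = 0.00287). It was above background on 9 of the 10 coat arrays and on 1 of the 22 embryo arrays. MYB64 gave 211 to 1335 in the seed coat with a median of 267, against 5.6 to 163 with a median of 41.9 in the embryo, and the regions did not overlap (log2 difference 2.67 ± 0.41, SE; adjusted p = 0.000306). Both genes were therefore near or below background in nearly all embryo tissue.

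MYB75 was uneven within the coat. It stood at 3084 and 1914 in the seed coat parenchyma, 1957 and 559 in the aleurone and 507 and 1669 in the hourglass layer, but at 3.9 and 61.1 in the palisade and 29.2 and 7.7 in the hilum, against 3.1 to 96.5 on all embryo arrays. No embryo array was above background, and the hilum and palisade were as low as the embryo. The log2 difference of 2.79 ± 0.85 (SE; adjusted p = 0.0281) lost its call without the aleurone (2.35, adjusted p = 0.0731), the hourglass layer (2.40, adjusted p = 0.0903), the parenchyma (2.05, adjusted p = 0.0941), palisade replicate 2 (2.59, adjusted p = 0.0564) or the 6 arrays with bright controls (2.56, adjusted p = 0.0656).

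MYB57 ran from 111 to 2286 in the seed coat with a median of 924.5, against 5.7 to 633 with a median of 199 in the embryo (log2 difference 2.52 ± 0.65, SE; adjusted p = 0.0121). The mean of its 3 passing probe sets gave 0.74 with adjusted p = 0.164. MYB134, which RefSeq lists under MYB114 with synonyms of the LHY clock type, ran from 699 to 2723 in the seed coat with a median of 1077, against 169.5 to 1948 with a median of 374 in the embryo (log2 difference 1.66 ± 0.35, SE; adjusted p = 0.00337). MYB112 was the only one of the 50 called lower in the coat. It ran from 1912 to 10872 in the seed coat with a median of 5730, against 7340 to 26528 with a median of 14738 in the embryo. It was far above background on all 32 compartment arrays, and its coat signal was 2.54-fold lower (log2 difference -1.34 ± 0.25, SE; adjusted p = 0.00124).

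**Figure D2:**
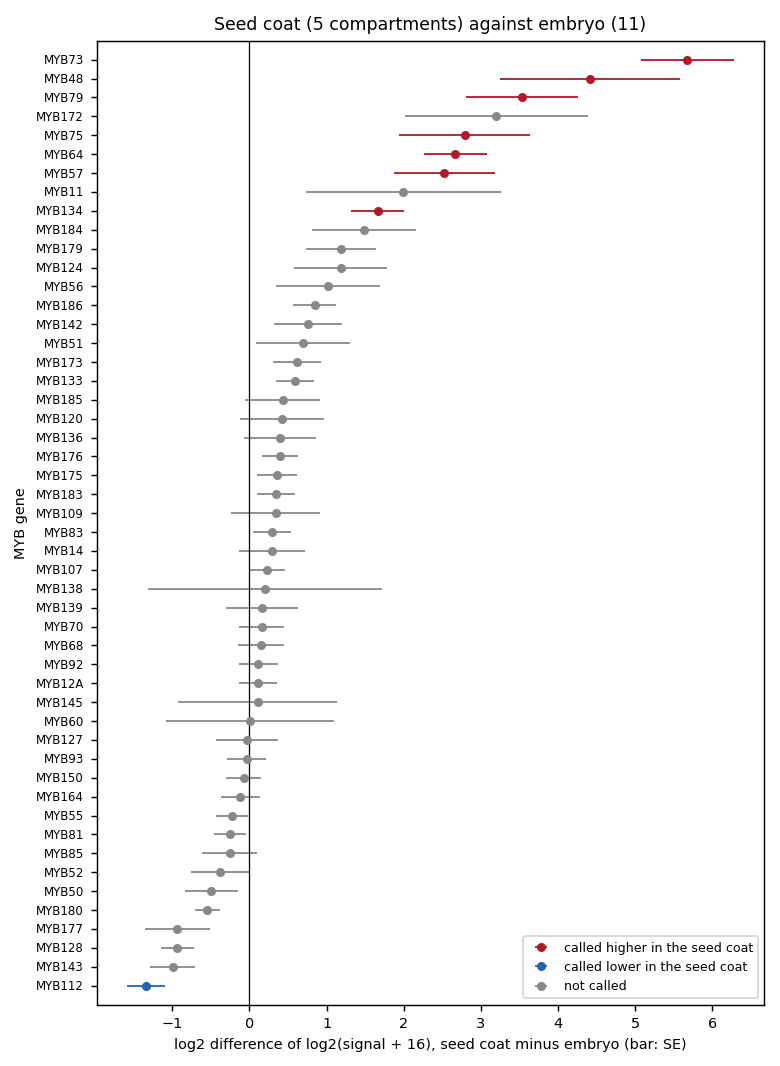
Points give the log2 difference of each of the 50 MYB genes, seed coat (5 compartments) minus embryo (11), and bars its SE. The 7 genes called higher lie between 1.66 and 5.68, and MYB112, called lower, lies at -1.34.

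Single layers of the seed coat held most of the genes that were enriched in 1 compartment. A gene was called enriched where limma called the compartment higher than the other 15 together and neither of its 2 arrays was reached by any of the other 30. By this rule 16 of the 50 MYB genes were enriched, 32%, beside 26% of all tested probe sets. Of the 16, 4 belonged to the palisade (beside 2.75% of all tested), 4 to the seed coat parenchyma (3.23%), 3 to the hourglass layer (4.90%), 3 to the hilum (2.47%), 1 to the axis shoot meristem (1.75%) and 1 to the cotyledon vascular bundle (1.02%). Genes are counted by their symbol throughout. MYB64 and MYB120, both enriched in the hilum, are thus counted apart though RefSeq joins them, as are MYB79 and MYB179 among the 50. No MYB gene was enriched in the aleurone or in the other 9 embryo compartments, where between 0.454 and 2.81% of all tested probe sets were. The palisade, or macrosclereid layer, is the hard outer face of the coat, and the hourglass cells lie just beneath it.

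**Figure D3:**
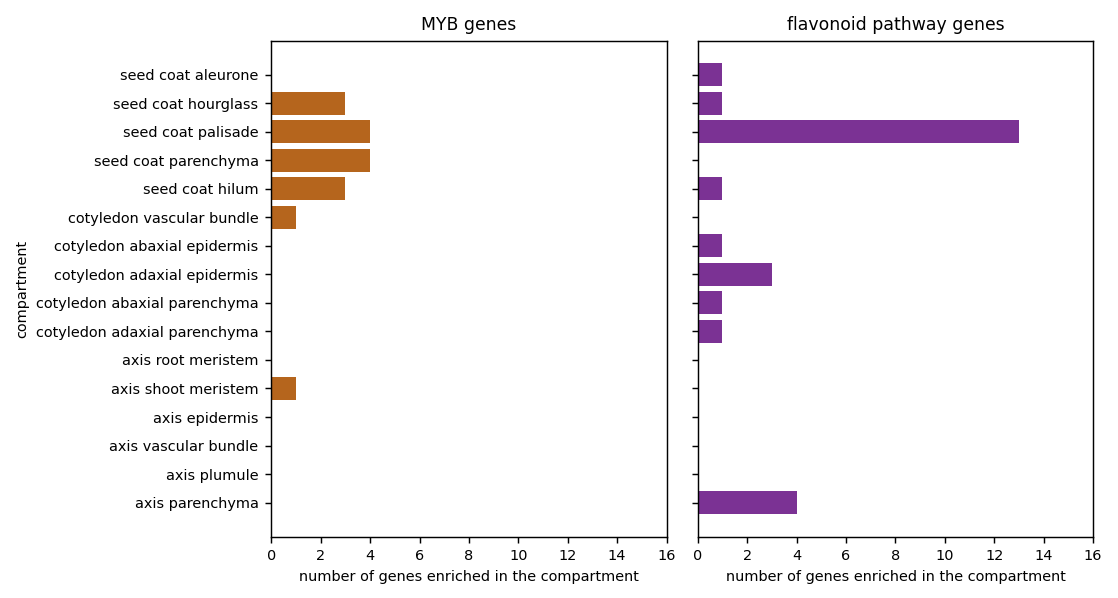
Bars count the genes enriched in each of the 16 compartments, for the 50 MYB genes on the left and 33 flavonoid pathway genes on the right. MYB genes are spread over palisade (4), parenchyma (4), hourglass (3) and hilum (3), whereas 13 of the 26 enriched flavonoid genes belong to the palisade.

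In the palisade MYB172 read 45919 and 36937, against a lowest of 46.2, a median of 899 and a highest of 19977 on the other 30 compartment arrays. The hilum came next with 16838 and 19977, then the hourglass layer with 13311 and 7360. The seed coat parenchyma, a layer of the same coat, read only 161 and 165. The log2 difference from the other 15 compartments was 5.54 ± 0.42 (SE; adjusted p = 7.95e-11), a 46.6-fold difference, with plain mean signals of 41428 in the palisade and 3141 in the other compartments.

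MYB11 had a like order at the top. Its signal was 8030 and 9720 in the palisade, against 9.8 to 6394 with a median of 104 on the other arrays. The hilum (6394 and 6227), the adaxial epidermis of the cotyledon (2987 and 3078) and the axis epidermis (1574 and 1716) followed, and most other compartments were at background. The log2 difference was 5.51 ± 0.40 (SE; adjusted p = 2.34e-11), and the plain mean signals were 8875 in the palisade and 823 in the other compartments. A second passing probe set of MYB11, dimmer and above background on 15 arrays, was highest in the aleurone instead, with a correlation of 0.39 to the first over the 16 compartments.

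MYB56 read 1251 and 1539 in the palisade, against 12.1 to 448 with a median of 98.7 elsewhere (log2 difference 3.71 ± 0.55, SE; adjusted p = 8.20e-06). MYB185 was above background nowhere but on the 2 palisade arrays, at 254 and 230.2, against 3 to 185 elsewhere. It entered the 50 genes only through these arrays, so its log2 difference of 2.44 ± 0.55 (SE; adjusted p = 0.00153) follows in part from the filter, and without palisade replicate 1 the adjusted p was 0.0502.

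In the hourglass layer MYB48 read 35409 and 22055, against 4.9 to 14472 with a median of 67.1 on the other 30 arrays. The hilum followed with 14472 and 7044, and 3 of the 4 cotyledon surface and ground tissues held no array above 25. The log2 difference was 7.66 ± 0.53 (SE; adjusted p = 9.03e-12), and the plain mean signals were 28732 in the hourglass layer and 936 in the other compartments. MYB73 read 31498 and 30982 there, with 22177 and 22797 in the palisade, 15741 and 14064 in the seed coat parenchyma, 2459 and 2369 in the hilum and 953 and 1665 in the aleurone. All 5 coat compartments were thus well above background, and the hourglass layer stood 6.25 ± 0.47 log2 units over the other 15 compartments (SE; adjusted p = 3.91e-11). Under quantile normalization its 2 arrays no longer lay above all others (log2 difference 6.00).

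MYB14, known in soybean for effects on plant architecture, read 1276 and 882 in the hourglass layer, against 42.6 to 496 with a median of 282 elsewhere (log2 difference 2.11 ± 0.41, SE; adjusted p = 0.000158). The difference was 4.33-fold, and most other compartments were close to one another.

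In the seed coat parenchyma MYB138 read 16264 and 12624, against 8.1 to 10989 with a median of 904 on the other 30 arrays. The axis vascular bundle (10989 and 6094), the cotyledon vascular bundle (7628 and 3928) and the root meristem (6014 and 2632) followed. The palisade (9 and 57) and every embryo epidermis were at background. The log2 difference was 4.68 ± 0.51 (SE; adjusted p = 6.27e-08), a 25.7-fold difference, with plain mean signals of 14444 in the parenchyma and 1957 in the other compartments. The summed signal of the sieve element occlusion genes was also highest in the seed coat parenchyma, and the part of these genes in this result was not tested.

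MYB134 read 2723 and 2646 in the seed coat parenchyma, against 169.5 to 2189 with a median of 540 elsewhere (log2 difference 2.32 ± 0.37, SE; adjusted p = 2.19e-05). MYB176, known in soybean as an activator of the chalcone synthase gene CHS8 and of isoflavonoid synthesis, read 2824 and 2896 there, against 747 to 1638 with a median of 1122 elsewhere. It was above background on every array, and the parenchyma was 2.63-fold over the mean of the other 15 compartments (log2 difference 1.39 ± 0.22, SE; adjusted p = 1.64e-05). The nearest compartment, the abaxial epidermis of the cotyledon, had a mean of 1513. MYB51 read 737 and 635 in the seed coat parenchyma, against 5.6 to 343 with a median of 57.6 elsewhere (log2 difference 3.13 ± 0.69, SE; adjusted p = 0.000914), but its second probe set, with a correlation of 0.19 to the first over 16 compartments, was highest in the axis shoot meristem, and the mean of both was not enriched (log2 difference 1.71).

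In the hilum, the scar of attachment to the pod, MYB64 read 1335 and 1091, against 5.6 to 599 with a median of 78.1 elsewhere (log2 difference 3.69 ± 0.54, SE; adjusted p = 5.38e-06). MYB120 read 1062 and 1635, against 9.7 to 275 with a median of 149 elsewhere (log2 difference 3.30 ± 0.45, SE; adjusted p = 2.35e-06). RefSeq gives MYB120 as another name of MYB64. The probe sets shared the hilum as their highest compartment but not the rest, MYB64 having 599 and 506 in the palisade and MYB120 having 162 and 214, and their correlation over the 16 compartments was 0.39.

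MYB184 read 540 and 969 in the hilum, against 1 to 143 with a median of 5.05 elsewhere, and was above background on 1 of the other 30 arrays (log2 difference 4.73 ± 0.53, SE; adjusted p = 1.01e-07). MYB79 and MYB60 also had their highest mean in the hilum but did not meet the rule. For MYB79 the hilum (3799 and 2926) overlapped with the hourglass layer (3584 and 2284), and for MYB60 it (2982 and 2636) overlapped with the abaxial epidermis of the cotyledon (2137 and 3272).

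**Figure D4:**
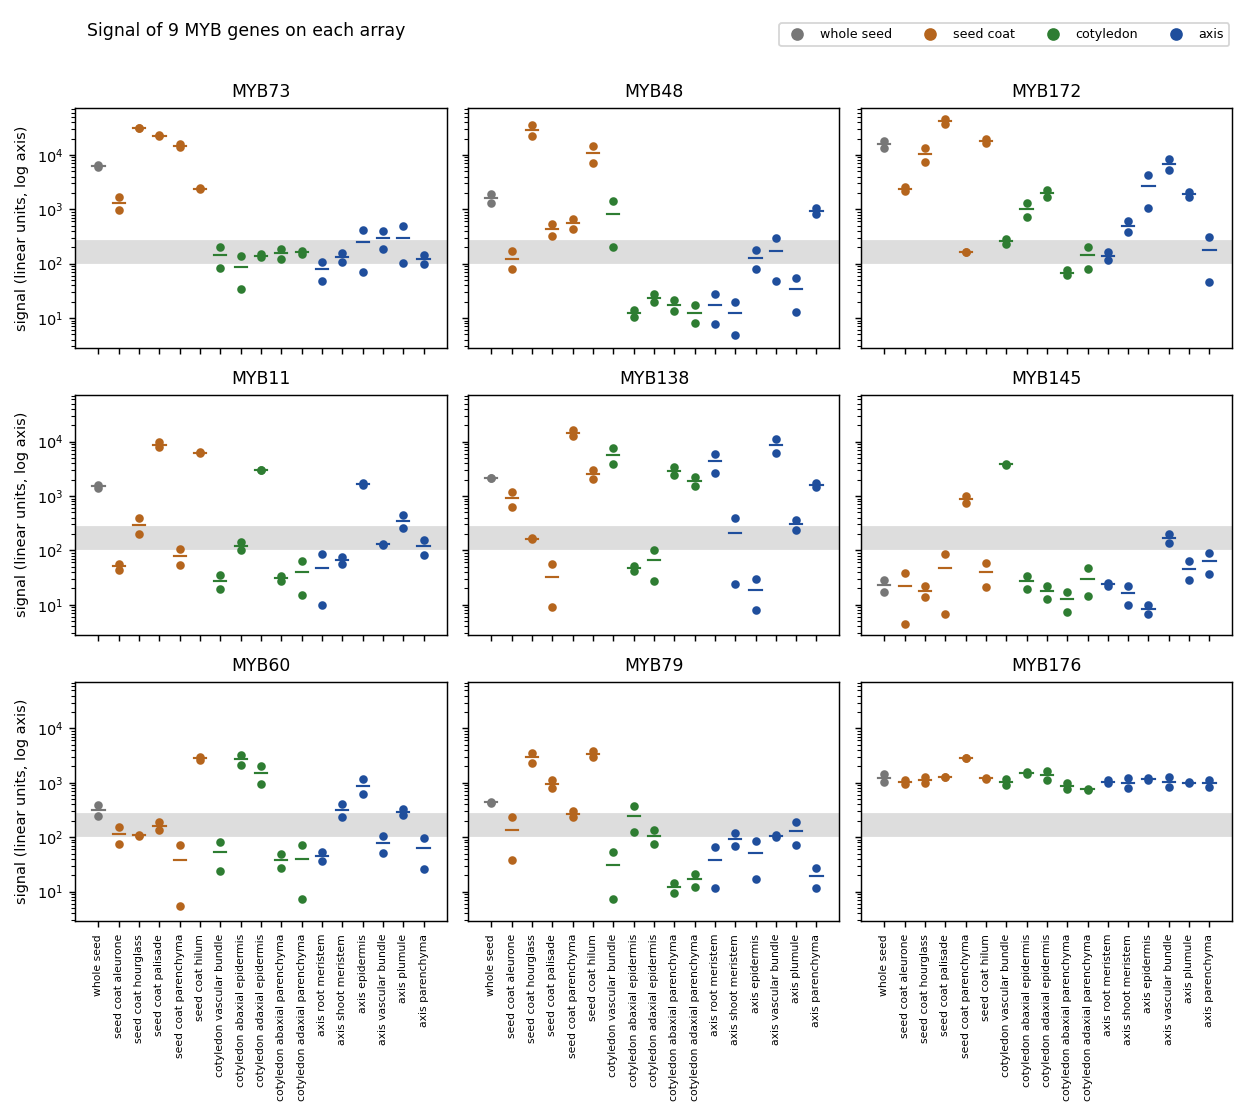
Each panel gives the signal of 1 MYB gene on every array (2 points a group, log axis, values under 1 drawn at 1), with a line at the group mean and a grey band over the range of array backgrounds, 104.3 to 263.9. MYB73 is above the band in all seed coat groups and at or near it in the embryo, MYB48, MYB172, MYB11, MYB138 and MYB145 are high in separate sets of groups, and MYB176 stays above the band throughout.

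The aleurone lies against the embryo inside the maternal coat, and 12 MYB genes differed between it and the mean of the 4 maternal layers. In the aleurone 3 were higher and 9 lower, 6% and 18% of the 50, beside 10.8% and 11% of all tested probe sets. The median difference of the 50 genes was -0.40 log2 units, beside 0.06 for all tested. Leaving out single arrays gave 9 to 12 calls.

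MYB48 read 169 and 80 in the aleurone, against 327 to 35409 with a median of 3857 in the maternal layers, without overlap (log2 difference -4.44 ± 0.57, SE; adjusted p = 1.14e-06). MYB11 read 44.5 and 57.4, against 52.8 to 9720 with a median of 3312 (log2 difference -4.06 ± 0.43, SE; adjusted p = 4.29e-08). MYB79 read 37.8 and 236, against 235 to 3799 (log2 difference -3.45 ± 0.56, SE; adjusted p = 3.23e-05). On the probe sets used, these genes were at or near background in the aleurone and had their highest signals in a maternal layer. For MYB11 this rests on 1 probe set, since its second was highest in the aleurone.

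MYB73 was 953 and 1665 in the aleurone, against 2369 to 31498 with a median of 18959 in the maternal layers, so that it was lower by 9.90-fold (log2 difference -3.31 ± 0.51, SE; adjusted p = 1.43e-05) though still well above background. MYB109 read 30.9 and 13.1, against 76.3 to 687 (log2 difference -2.86, adjusted p = 0.00649), and MYB120 read 9.7 and 73.3, against 45.1 to 1635 (log2 difference -2.49, adjusted p = 0.000341). MYB109 was not called without aleurone replicate 2 (-2.51, adjusted p = 0.103). MYB120 was not called without aleurone replicate 1 (-1.59, adjusted p = 0.0716), nor when all 6 bright-control arrays were dropped (-1.59, adjusted p = 0.0668).

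MYB124 was the higher gene with the widest difference. It read 399 and 452 in the aleurone, against 7.8 to 449.5 with a median of 27 in the maternal layers (log2 difference 2.81 ± 0.62, SE; adjusted p = 0.00104). Only the seed coat parenchyma, at 306 and 449.5, reached the aleurone, and the other 3 layers held no array above 50. MYB75 was called higher in the aleurone by 2.19 ± 0.65 log2 units (SE; adjusted p = 0.0125), but not without aleurone replicate 1 (1.30, adjusted p = 0.335), which is 1 of the 6 arrays with bright controls, nor without all 6 (1.30, adjusted p = 0.291).

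Within the embryo, the cotyledon set against the axis gave no call among the 50 MYB genes, beside 0.872% of all tested probe sets called higher and 0.626% lower. In limma 6 of the 50 had an unadjusted p under 0.05, 3 in each direction, beside 16.8% of all tested probe sets, and the median difference was -0.16 log2 units, beside -0.07. MYB180, bright on every array, came nearest with 6599 to 13089 on the cotyledon arrays, against 8772 to 17930 on the axis arrays (log2 difference -0.66 ± 0.18, SE; adjusted p = 0.0729). The regions overlapped.

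Between epidermis and parenchyma, MYB60, MYB11, MYB172 and MYB138 were called in the same direction in both embryo organs. In the axis epidermis MYB172, MYB11 and MYB60 were higher than in the axis parenchyma and MYB138 and MYB48 lower, 6% and 4% of the 50 genes, beside 3.34% and 4.26% of all tested probe sets. In the cotyledon epidermis MYB60, MYB11, MYB172 and MYB79 were higher than in the cotyledon parenchyma and MYB138 and MYB134 lower, 8% and 4%, beside 5.94% and 5.98% of all tested. The median difference of the 50 genes was 0.01 log2 units in the axis, beside -0.02 for all tested, and 0.14 in the cotyledon, also beside -0.02.

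MYB60 read 1155 and 610 in the axis epidermis, against 26.3 and 97.6 in the axis parenchyma. In the cotyledon it read 2137 and 3272 in the abaxial and 2071 and 968 in the adaxial epidermis, against 27.3 and 48.4 in the abaxial and 73 and 7.3 in the adaxial parenchyma. All 6 epidermis arrays were above background and none of the 6 parenchyma arrays was. The log2 difference was 3.63 ± 0.68 in the axis (SE; adjusted p = 0.000806) and 5.32 ± 0.48 in the cotyledon (SE; adjusted p = 4.38e-09). In a fit of only the arrays compared the axis call was lost for MYB60 (adjusted p = 0.0564) and for MYB172 (adjusted p = 0.0974), described next.

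MYB172 read 1070 and 4321 in the axis epidermis, against 46.2 and 315 in the axis parenchyma (log2 difference 3.92 ± 0.58, SE; adjusted p = 4.14e-05). In the cotyledon it read 1305 and 729 in the abaxial and 1688 and 2305 in the adaxial epidermis, against 61.9 to 206 in the 4 parenchyma arrays (log2 difference 3.66 ± 0.41, SE; adjusted p = 1.78e-07). Groups did not overlap in either organ.

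MYB11 was higher in the epidermis of both organs, with unlike signals on the 2 faces of the cotyledon. It read 1574 and 1716 in the axis epidermis, against 83 and 154 in the axis parenchyma (log2 difference 3.68 ± 0.54, SE; adjusted p = 3.97e-05). The adaxial epidermis of the cotyledon read 2987 and 3078 and the abaxial epidermis 140.2 and 103, against 15.4 to 63.5 in the cotyledon parenchyma (log2 difference of the mean of both faces 3.74 ± 0.38, SE; adjusted p = 3.71e-08). The abaxial face was at background level, and the difference between the faces was not tested.

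MYB138 ran the other way. It read 8.1 and 29.7 in the axis epidermis, against 1739 and 1469 in the axis parenchyma (log2 difference -5.60 ± 0.70, SE; adjusted p = 3.62e-06), and 27.2 to 104 in the 4 cotyledon epidermis arrays, against 1519 to 3424 in the 4 cotyledon parenchyma arrays (log2 difference -5.11 ± 0.50, SE; adjusted p = 1.53e-08). No epidermis array of the embryo was above background. MYB48 was lower in the axis epidermis, at 79.9 and 175, against 804 and 1057 in the axis parenchyma (log2 difference -2.79 ± 0.73, SE; adjusted p = 0.0148). Its call was lost without axis epidermis replicate 1 (-2.30, adjusted p = 0.129), without axis parenchyma replicate 1 (-2.99, adjusted p = 0.0572) and without axis parenchyma replicate 2 (-2.60, adjusted p = 0.113). It was also lost on the mean of its probe sets (-1.57, adjusted p = 0.203), with array weights (adjusted p = 0.0929) and in a fit of only the arrays compared (adjusted p = 0.0668).

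MYB79 read 126 and 367 in the abaxial and 134 and 76 in the adaxial epidermis of the cotyledon, against 9.2 to 21.1 in the parenchyma (log2 difference 2.47 ± 0.50, SE; adjusted p = 0.000826), but only 1 of these arrays was above background. MYB134 was lower in the cotyledon epidermis by 1.06 ± 0.36 log2 units (SE; adjusted p = 0.0433), and this call was lost without single arrays, down to -0.62 with adjusted p = 0.282 without adaxial epidermis replicate 1, and under 7 other settings (-1.09 to -0.98, adjusted p between 0.0341 and 0.127). When the difference in the cotyledon was itself set against that in the axis, no MYB gene was called, beside 2.28% of all tested probe sets called higher and 1.07% lower. In limma 7 of the 50 (5 higher, 2 lower) had an unadjusted p under 0.05 there, beside 15.5% of all tested. Both axis epidermis arrays had bright hybridization controls, and their part in these results was not tested.

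Between vascular bundle and parenchyma, MYB48 alone of the 50 genes was called in both organs, and in opposite directions. In the axis vascular bundle MYB172 and MYB138 were higher than in the axis parenchyma and MYB48 lower, 4% and 2% of the 50, beside 3.57% and 3.65% of all tested probe sets. In the cotyledon vascular bundle MYB145, MYB48 and MYB57 were higher than in the cotyledon parenchyma and MYB14 lower, 6% and 2%, beside 6.65% and 4.03% of all tested. The median difference was 0.14 log2 units in the axis, beside 0.05 for all tested, and -0.20 in the cotyledon, beside -0.05. The difference between the organs was called for MYB48, MYB145 and MYB57, larger in the cotyledon, and for MYB172, smaller there, 6% and 2%, beside 2.19% and 0.844% of all tested.

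MYB145 had its highest signal in a vascular compartment. It read 3939 and 3804 in the cotyledon vascular bundle, against 7.5 to 46.5 in the 4 cotyledon parenchyma arrays, at least 22.5-fold (log2 difference 6.80 ± 0.58, SE; adjusted p = 2.60e-09). Set against all other 15 compartments it was enriched there by 6.16 ± 0.49 log2 units (SE; adjusted p = 1.37e-09). Only the seed coat parenchyma, at 745 and 990, was also above background. The axis vascular bundle read 202 and 137, against 37.1 and 89.7 in the axis parenchyma, with no array above background, and the organs' differences were 5.52 ± 0.89 log2 units apart (SE; adjusted p = 0.000294). A second probe set of MYB145 was highest in the seed coat parenchyma, with a correlation of 0.52 to the first over the 16 compartments, and the mean of both gave 3.06 with adjusted p = 0.0556 for the contrast of the organs.

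MYB172 read 5304 and 8525 in the axis vascular bundle, against 46.2 and 315 in the axis parenchyma (log2 difference 5.55 ± 0.58, SE; adjusted p = 2.73e-07). In the cotyledon vascular bundle it read 289 and 225, against 61.9 to 206 in the parenchyma, with no call. The difference in the cotyledon was smaller by 4.26 ± 0.77 log2 units (SE; adjusted p = 0.00102). MYB172 was thus called higher in both the epidermis and the vascular bundle of the axis, as no other of the 50 genes was.

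MYB48 read 1424 and 204 in the cotyledon vascular bundle, against 8.1 to 21.3 in the parenchyma (log2 difference 4.20 ± 0.63, SE; adjusted p = 2.06e-05), and 294 and 48.3 in the axis vascular bundle, against 804 and 1057 in the axis parenchyma (log2 difference -2.73 ± 0.73, SE; adjusted p = 0.0172). Its replicates differed several-fold in both bundles. The axis call was lost when replicate 2 of the bundle was left out (-1.60, adjusted p = 0.251), and also when replicate 1 (-2.93, adjusted p = 0.0633) or 2 (-2.54, adjusted p = 0.124) of the parenchyma was. Array weights (adjusted p = 0.0704) and a fit of only the arrays compared (adjusted p = 0.129) ended it too. The contrast of the organs, 6.93 ± 0.96 log2 units (SE; adjusted p = 3.62e-05), was the largest of the 4.

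MYB57 read 533 and 633 in the cotyledon vascular bundle, against 38.1 to 245 in the parenchyma (log2 difference 2.12 ± 0.65, SE; adjusted p = 0.029). It read 8.8 and 150.2 in the axis vascular bundle, against 215 and 257 in the axis parenchyma. The cotyledon call was lost without abaxial parenchyma replicate 1 (1.93, adjusted p = 0.091), adaxial parenchyma replicate 2 (1.55, adjusted p = 0.154), vascular bundle replicate 1 (2.24, adjusted p = 0.132) or vascular bundle replicate 2 (2.00, adjusted p = 0.207). Its 2 other passing probe sets had correlations of -0.06 and 0.31 to the one used, each above background on 3 arrays. The mean of its 3 probe sets gave 0.97 with adjusted p = 0.317, and the call was also lost with a pseudocount of 1 (adjusted p = 0.0915) and under quantile normalization (adjusted p = 0.0562).

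MYB138 was higher in the axis vascular bundle, at 10989 and 6094, against 1739 and 1469 in the axis parenchyma (log2 difference 2.34 ± 0.70, SE; adjusted p = 0.037). The groups did not overlap, but the call was lost without axis vascular bundle replicate 1 (1.92, adjusted p = 0.279), an array with bright controls, and without axis parenchyma replicate 1 (2.47, adjusted p = 0.119) or replicate 2 (2.22, adjusted p = 0.18). It was also lost with a pseudocount of 1, under quantile normalization, without the intensity trend and with array weights (adjusted p between 0.0502 and 0.116). MYB14 was lower in the cotyledon vascular bundle, at 111 and 156, against 350 to 447 in the parenchyma (log2 difference -1.47 ± 0.49, SE; adjusted p = 0.0464). Its adjusted p lay so near the limit that leaving out any of many single arrays ended the call, the highest being 0.323 without vascular bundle replicate 1, as did a pseudocount of 1, quantile normalization and no filter (adjusted p between 0.0518 and 0.0652). The summed signal of the sieve element occlusion genes was higher in both bundles than in any other embryo compartment. It stayed far below the seed coat parenchyma. Of the single genes, SEOF stood at 823 in the cotyledon bundle and SEOA at 451.5 in the axis bundle. SEO-F3 ran the other way in the axis, at 73.8 in the bundle against 217.8 in the parenchyma. In the cotyledon SEO-F3 stood at 194.8 in the bundle, against 446.7 in the abaxial and 190.3 in the adaxial parenchyma. SEOC, SEOE and SEOP, too, had their highest embryo mean outside the bundles.

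**Figure D5:**
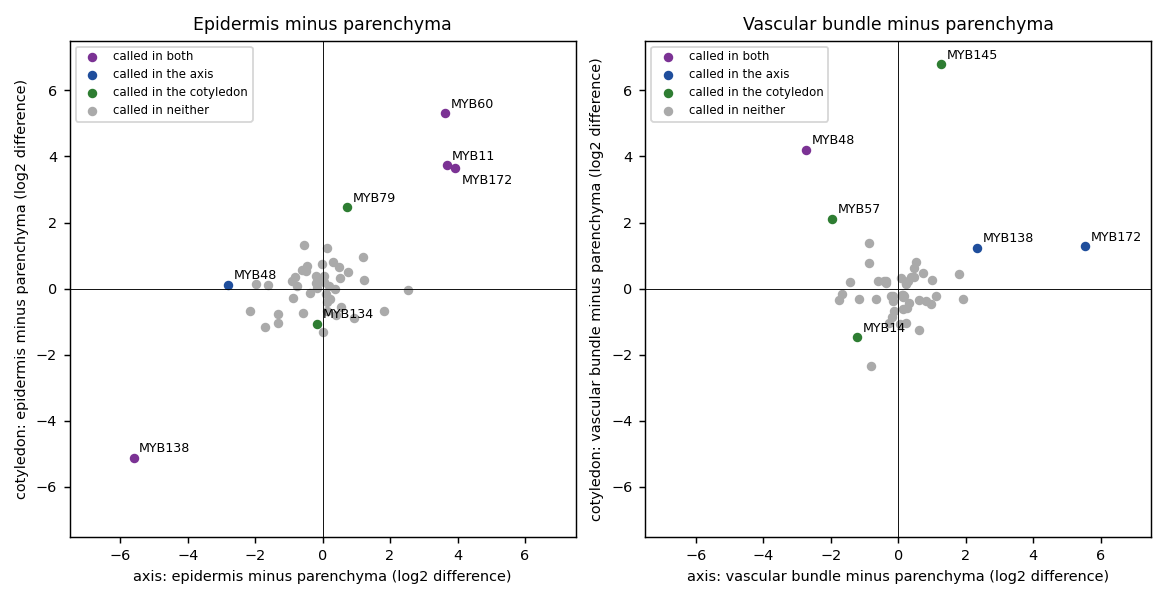
Each point is 1 of the 50 MYB genes, placed by its log2 difference in the axis (horizontal) and in the cotyledon (vertical), for epidermis minus parenchyma on the left and vascular bundle minus parenchyma on the right. MYB60, MYB11, MYB172 and MYB138 lie far from 0 in the same direction in both organs on the left, whereas MYB145, MYB48, MYB57 and MYB172 lie off the diagonal on the right.

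In the meristems of root and shoot, set against the other 4 axis compartments, no MYB gene was higher and 4 were lower, 8% of the 50, beside 1.65% and 3.62% of all tested probe sets. In limma 15 of the 50 had an unadjusted p under 0.05, 3 on the higher side and 12 on the lower, beside 9.92% and 11.6% of all tested, and the median difference was -0.09 log2 units, beside -0.01 for all tested. MYB172 read 115 and 162 in the root meristem and 385 and 612 in the shoot meristem, against 46.2 to 8525 with a median of 1882 on the other 8 axis arrays (log2 difference -2.35 ± 0.35, SE; adjusted p = 6.13e-05). MYB11 read 9.8 to 85.7 in the meristems, against 83 to 1716 (log2 difference -2.33 ± 0.33, SE; adjusted p = 2.87e-05). MYB48 read 4.9 to 27.1, against 13.1 to 1057 (log2 difference -2.51, adjusted p = 0.000418), and MYB57 5.7 to 30.7, against 8.8 to 321 (log2 difference -2.28, adjusted p = 0.0018).

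MYB11, MYB48 and MYB57 were below background on all 4 meristem arrays. Without the 6 arrays with bright controls, which include both axis epidermis arrays, MYB11 gave -1.08 with adjusted p = 0.158. On the mean of all passing probe sets MYB48 (-0.98, adjusted p = 0.186) and MYB57 (-0.86, adjusted p = 0.188) were not called.

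The shoot meristem by itself held 1 enriched MYB gene. MYB107 read 3649 and 3173 there, against 885 to 2533 with a median of 1462 on the other 30 arrays, a 2.31-fold difference (log2 difference 1.21 ± 0.26, SE; adjusted p = 0.00107). The plumule, which holds the first leaves and adjoins the shoot meristem, came next with 1710.0 and 2533. MYB107 was above background on all 34 arrays. Without shoot meristem replicate 1 the adjusted p was 0.0531.

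In the whole seed, set against the mean of the 16 compartments, 10 MYB genes were higher and 1 lower, 20% and 2%, beside 12% and 7.38% of all tested probe sets, with a median difference of 0.20 log2 units, beside 0.01. The whole seed is described as prepared differently from the compartments, with another RNA reagent and no sections. The labels of the whole seed samples nevertheless repeat the fixation and dissection steps of the compartments. The hybridization controls of the whole seed were also the dimmest of all, so preparation and tissue cannot be told apart. The mean of log values also weighs every compartment alike whatever its share of the seed. MYB172 read 13354 and 18345 in whole seed, against a median of 1188 on the compartment arrays (log2 difference 3.80 ± 0.42, SE; adjusted p = 2.58e-07). MYB73 read 5967 and 6581, against a median of 177 (log2 difference 3.55 ± 0.47, SE; adjusted p = 3.08e-06).

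MYB48 and MYB11 followed, with 1946 and 1303 (log2 difference 3.06, adjusted p = 9.43e-05) and with 1623 and 1383 (log2 difference 2.62, adjusted p = 1.76e-05). For all 4 the whole seed lay inside the range of the compartments. For MYB48, MYB79 and MYB138 the direction depended on the kind of mean, since the whole seed was above the mean of logs but below the plain mean of signals (1625 against 2673 for MYB48, 440.4 against 532 for MYB79, and 2171 against 2738 for MYB138).

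MYB57, MYB138, MYB79 and MYB127 were called by 1.96, 1.67, 1.63 and 1.55 log2 units. All 4 calls were lost when either whole seed array was left out (adjusted p between 0.0976 and 0.353). MYB57 was not called on the mean of its probe sets (0.84, adjusted p = 0.188), nor MYB138 when the 6 bright-control arrays were dropped (1.35, adjusted p = 0.0636), nor MYB127 with a pseudocount of 1, without a filter or under 75th percentile scaling (adjusted p between 0.0592 and 0.0705). With replicate 1 left out 5 genes were called, and with replicate 2 left out 7.

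MYB180 was the only MYB gene called lower in whole seed. It read 3885 and 3824 there, against 5335 to 17930 with a median of 9125 on the 32 compartment arrays (log2 difference -1.28 ± 0.19, SE; adjusted p = 1.28e-05). Both whole seed arrays lay below every compartment array, by 2.42-fold for the means.

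A few further MYB genes have a function worked out in soybean or in plants carrying the soybean gene, of which MYB133, MYB173, MYB183 and MYB68 were chosen after their values were seen. MYB92 and MYB177, reported to raise stress tolerance in Arabidopsis, differed in signal, MYB92 being above background on all 34 arrays (322 to 1402) and MYB177 on 14. MYB92 was highest in the axis parenchyma, at 1397 and 1154. MYB133, a single-repeat gene tied to isoflavonoid synthesis, ran from 182 to 1494 on the compartment arrays with no F-test call. MYB173 and MYB183, known from salt and flavonoid responses, ran from 245 to 1597 and from 96.6 to 396 on the same arrays. MYB68, known from salt and alkali tolerance, ran from 122 to 744. MYB29, MYB76, MYB84 and MYB118, which have roles in isoflavonoid synthesis or stress, did not pass the filter.

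Flavonoid genes were set beside the MYB genes because this pathway is the one best known to be under MYB control. The list held 33 measured symbols, of which 31 were called by the F test, beside 63.4% of all tested probe sets, and 26 were enriched in 1 compartment, beside 26%. The palisade held 13 of the 26, among them ANR1, LAR1, DFR1 and ANS2, which act in the making of proanthocyanidins and anthocyanins, and the axis parenchyma 4 (IFS1, CHI1B1, CHR1 and CHR5), of the isoflavonoid branch. In the seed coat, set against the embryo, 6 of the 33 were higher and 5 lower, 18.2% and 15.2%, beside 7.42% and 7.44% of all tested. IFR1, an isoflavone reductase gene, showed the widest of these differences (8.09 log2 units, adjusted p = 2.91e-07), followed downward by IFS1 (-5.28, adjusted p = 0.000185), CHI1B1 (-4.12, adjusted p = 0.00255) and IFS2 (-4.07, adjusted p = 1.07e-05). The cotyledon set against the axis gave no call among the 33. In limma 5 of them had an unadjusted p under 0.05, beside 16.8% of all tested.

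In the axis epidermis 5 of the 33 were higher and 7 lower than in the axis parenchyma, 15.2% and 21.2%, beside 3.34% and 4.26% of all tested. The 4 widest differences were those of UGT78K1, which adds glucose to anthocyanidins (7.00 log2 units, adjusted p = 2.64e-09), the chalcone reductase genes CHR5 (-5.72, adjusted p = 7.20e-05) and CHR1 (-3.87, adjusted p = 0.0017), and the flavonol synthase gene FLS1 (3.44, adjusted p = 0.00247). In the cotyledon epidermis 10 were higher and 2 lower, 30.3% and 6.06%, beside 5.94% and 5.98%. UGT78K1 (8.02, adjusted p = 3.36e-14), the methyltransferase gene SOMT-9 (6.58, adjusted p = 1.76e-09), the flavanone hydroxylase gene F3H (5.59, adjusted p = 1.14e-07) and the chalcone isomerase gene CHI2-A (4.78, adjusted p = 1.05e-11) led there.

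In the axis vascular bundle 5 were higher and 10 lower than in the parenchyma, 15.2% and 30.3%, beside 3.57% and 3.65% of all tested, led by CHR5 (-6.44, adjusted p = 1.38e-05), CHI1B1 (-5.00, adjusted p = 7.42e-08), F3H (4.14, adjusted p = 0.00207) and CHI4A (-4.05, adjusted p = 1.51e-10). In the cotyledon vascular bundle 5 were higher and 2 lower, 15.2% and 6.06%, beside 6.65% and 4.03%, led by SOMT-9 (5.87, adjusted p = 5.99e-07), 4CL1 (3.63, adjusted p = 7.10e-06), 4CL2 (3.37, adjusted p = 0.00014) and CHS1 (2.20, adjusted p = 0.00727). The 2 genes named 4CL encode ligases at the entry to the pathway.

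In the aleurone 3 were higher and 15 lower than in the maternal layers, 9.09% and 45.5%, beside 10.8% and 11% of all tested. UGT78K1 had the widest difference and was higher, with a mean of 8595 in the aleurone, against 240.2 in the maternal layers (6.02 log2 units, adjusted p = 8.97e-11). ANR1 (-5.45, adjusted p = 1.42e-08), LAR1 (-5.29, adjusted p = 1.13e-07) and DFR1 (-4.55, adjusted p = 7.97e-06) followed and were lower. In the meristems 1 was higher and 8 lower, 3.03% and 24.2%, beside 1.65% and 3.62%, led by F3H (-4.48, adjusted p = 1.95e-06), HIDH (-2.16, adjusted p = 0.0206), SOMT-9 (-2.04, adjusted p = 0.00884) and DFR1 (-1.89, adjusted p = 0.0223).

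In whole seed 20 were called higher than the mean of logs over the compartments, 60.6%, beside 12% of all tested, and 0 lower. Limma gave 26 at an unadjusted p under 0.05, all on the higher side. ANR1 (5.90, adjusted p = 4.59e-09), DFR1 (5.90, adjusted p = 1.19e-07), IFR1 (5.81, adjusted p = 3.17e-07) and ANS2 (5.24, adjusted p = 2.23e-08) led. For some of the 20 the whole seed was nevertheless below the plain mean of signals over the compartments. These included UGT78K1 (2774 against 6060), IFS1 (2712 against 3893), CHI1B1, CHS1 and CHR5. Most of the 20, with ANR1, DFR1, IFR1 and ANS2 among them, were above both kinds of mean. Alternatives were not run for the pathway genes.

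The pattern of some MYB genes over the 16 compartment means ran close to that of pathway genes. These correlations are given as a description, since all genes share the same arrays. MYB172 had its highest correlation with F3H (0.86) and stood at 0.82 with ANR1 and 0.80 with DFR1. MYB11 was nearest to 4CL3 (0.84), MYB73 to IFR1 (0.90) and MYB112 to IFS1 (0.83). MYB176 had a correlation of -0.03 with CHS8, the gene it is known to activate, which was enriched in the palisade, where MYB176 was not. Among the MYB genes themselves 4 pairs exceeded 0.80, MYB172 with MYB185 (0.85), MYB48 with MYB179 (0.84), MYB73 with MYB186 (0.83) and MYB11 with MYB185 (0.81), although MYB179, MYB185 and MYB186 were above background on only 2, 2 and 9 arrays.

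How well a probe set stands for its gene varied. Of the 50 genes 37 were read by 1 passing probe set. The other 13 had 19 further passing probe sets, whose correlation with the one used ran from -0.06 to 0.98 with a median of 0.66 over the 16 compartments. MYB172 was the firmest, with 0.98 and 0.74 and the palisade as highest compartment in all 3, and MYB48 (0.71) and MYB60 (0.87 and 0.68) kept their highest compartment too. For 9 genes the probe set name marks possible cross-hybridization or shared transcripts: MYB172 (suffix a), MYB50, MYB52, MYB92 and MYB180 (suffix s), and MYB93, MYB136, MYB175 and MYB176 (suffix x). RefSeq also joins MYB79 and MYB179 as names of MYBZ2, and their probe sets had a correlation of 0.66, both being highest in the hourglass layer or hilum. In such cases the signals of near-identical gene copies cannot be told apart.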

How the data were processed

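Seed RNA was measured in 34 samples on a 1-colour Affymetrix array for soybean. The values are linear intensity per probe set as deposited, made by the authors with GCOS 1.3, per the submitters' processing notes. Which algorithm it ran, and with what settings, is not stated in what was used here. No depth of reads applies to arrays, and 2 arrays a group limit the precision. Samples were grouped by their titles.

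Intensities were taken as deposited, 16 was added and log2 taken, without further normalization. Of 61170 probe sets, 37593 were soybean ones, and 28441 stood above the 95th percentile of the 23350 nematode and oomycete probe sets on at least 2 arrays and were tested. Gene names come from the platform's probe-to-gene table, in which 8677 soybean probe sets had 1 symbol, 370 several and 28546 none. RefSeq (Glycine_max_v4.0) matched 44 of the 50 genes by symbol and was used for names only. Tests used limma 3.58.1 in R 4.3.3 (lmFit, eBayes with an intensity trend, Benjamini-Hochberg adjustment), 1 fit of 17 groups for comparisons of compartments and a fit to 16 compartment means for comparisons of regions. Calls needed an adjusted p under 0.05 and a log2 difference of at least 1. The scripts were tested on simulated data.

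The genes, the lists and the comparisons were chosen with earlier results of these data known. Named genes are, per comparison, up to 8 called genes with the largest difference, all genes enriched in 1 compartment, the 6 widest and 3 narrowest spans, and genes of known function in soybean. For pathway genes it is the called ones with the 4 largest differences, beside some of those enriched, and contrasts of the organs were left out for them. MYB57, MYB60, MYB79, MYB112 and MYB180 were given further values once theirs were seen, as were MYB68, MYB133, MYB173 and MYB183. Alternatives were pseudocounts of 1 and 64, no filter or a stricter one of 4 arrays, quantile and 75th percentile scaling, no trend, array weights, the replicate block, the mean of a gene's probe sets, fits of only the arrays compared, and leaving out arrays or compartments.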

Additional observations from a re-analysis of the deposited data

Results flagged for a closer look

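For 4 MYB genes the difference between vascular bundle and parenchyma was itself unequal in the 2 embryo organs by an interaction term in limma over all tested probe sets, taken as cotyledon minus axis. It was 6.93 log2 units for MYB48 (adjusted p = 3.62e-05), 5.52 for MYB145 (adjusted p = 0.000294), -4.26 for MYB172 (adjusted p = 0.00102) and 4.09 for MYB57 (adjusted p = 0.0177). MYB48 was higher in the bundle than in the parenchyma of the cotyledon (4.20) and lower in that of the axis (-2.73), each with a call. MYB145 was called in the cotyledon and MYB172 in the axis. MYB57 was called in the cotyledon (2.12), and its contrast was no longer called when replicate 1 of the axis bundle (2.71, adjusted p = 0.211), replicate 2 of the axis parenchyma (3.97, adjusted p = 0.0764) or either replicate of the cotyledon bundle (4.21 and 3.97, adjusted p = 0.0553 and 0.0874) was left out. The same held on the mean of its probe sets (2.27, adjusted p = 0.176), when the 6 bright-control arrays were dropped (2.71, adjusted p = 0.12) and in a fit of only the arrays compared (adjusted p = 0.111). The contrast of MYB145 was not called on the mean of its probe sets (3.06, adjusted p = 0.0556).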

How the results depend on the processing

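Of 66 results on single MYB genes, 39 kept their call and direction under every alternative that gave a value, 27 lost the call under at least 1, and 0 changed direction. Apart from leaving out arrays or compartments, which is given further below, counts of called MYB genes moved by over 1.5 times in these cases. For the cotyledon vascular bundle against parenchyma the count was 4, against 2 with a pseudocount of 1, 2 under quantile normalization and 7 with array weights. For the axis vascular bundle it was 3, against 1 with array weights, and for the axis epidermis 5, against 2 in a fit of only the arrays compared, which leaves few residual degrees of freedom. For the meristems it was 4, against 2 on the mean of a gene's probe sets. For the epidermis contrast of the organs it was 0, against 1 with a pseudocount of 64, under quantile normalization and on the mean of probe sets. The cause of these shifts was not tested. Leaving out single arrays (or, for regions, compartments) gave 30 to 36 genes by the F test, 16 to 19 enriched genes, 7 to 10 calls for seed coat against embryo, 0 for cotyledon against axis, 4 to 7 and 5 to 7 for epidermis in axis and cotyledon, 1 to 4 and 2 to 5 for vascular bundle in axis and cotyledon, 4 to 5 for meristems, 9 to 12 for aleurone, 5 to 13 for whole seed, and 0 to 1 and 3 to 5 for the epidermis and vascular contrasts. Without the arrays with bright controls the axis epidermis has no array left, so its comparisons could not be run. For the whole seed the fit of only the arrays compared is the same fit. Scaling to the 75th percentile moved the median of all tested probe sets by -0.13 log2 units for whole seed against compartments, and by under 0.1 elsewhere.

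Replicate numbers did not meet the limit for pairing the samples: over 136 pairs of groups the correlation of same-numbered deviations had a median of 0.02 (-0.09 to 0.15), and 4 pairs were over 0.1, although the mean correlation was above 0 for 16 of the 17 groups. With the replicate number as a block the counts were 34 by the F test, 10 for seed coat against embryo (8 without the block), 12 for whole seed and 16 enriched genes, and the other counts stayed at 0, 5, 6, 3, 4, 4, 12, 0 and 4.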
